A study of Mus musculus with 12 samples.

Results

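The mitochondrial respiratory chain genes that lie in the nucleus were followed in mouse liver with and without extra Mir483. They were taken from the gene count table by symbol, as protein-coding genes whose names begin with Nduf (complex I), Uqcr (complex III), Cox4 to Cox8 (complex IV) or Atp5 (complex V, the ATP synthase). This rule used no measured value. It gave 90 of 55401 gene identifiers, or 89 symbols, because Atp5o has 2 identifiers. They comprised 38 complex I subunits, 8 complex I assembly factors (Ndufaf genes), 8 complex III genes, 18 complex IV genes and 18 complex V identifiers.

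Livers came from female mice aged 15 weeks, 6 carrying iTgMir483 and 6 littermate controls, and mRNA was measured by RNA-seq. iTgMir483 is a single-copy Mir483 transgene at the Rosa26 locus under a Tet-off switch, on a C57BL/6J background. Its Neo cassette was removed with CMV-Cre, which acts in all tissues, so expression was not limited to hepatocytes. In the post-natal experiment of this line, doxycycline, which silences the transgene, was given to pregnant dams and withdrawn after birth, so the litters shared that exposure. The labels call the other group control and do not say whether these littermates carried Cre or the transactivator.

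The respiratory chain passes electrons from NADH and succinate to oxygen through complexes I to IV and pumps protons across the inner mitochondrial membrane, and complex V makes ATP from the resulting gradient. Complexes I, III, IV and V each join subunits made from nuclear genes to a few made from mitochondrial DNA, and complex II is wholly nuclear. The liver depends on this system to pay for urea synthesis, gluconeogenesis and lipid handling.

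Library totals ranged from 12244123 to 30431286 counts. Mir483 had 0 counts in each Control library and 318 to 761 counts in each iTgMir483 library, which matches the labels. Among hepatocyte markers, 3 of 7 were lower in iTgMir483 livers. The summed level of the 7 was 118244 to 166825 CPM (counts scaled to a common library size after TMM normalization, the trimmed mean of M-values method) in Control and 56030 to 128221 CPM in iTgMir483. Most of that sum was albumin (Alb) in every liver. Of 8 macrophage markers, 7 were higher, with a summed level of 319 to 467 CPM in Control and 493 to 1441 CPM in iTgMir483. Of 5 bile duct markers, 3 were higher (summed 20.9 to 46.1 against 60.7 to 89.1 CPM). Of 6 endothelial markers 1 (Pecam1) was higher, as was 1 of 4 tested lymphocyte markers (Ptprc), and 0 of 7 stellate, 0 of 4 blood and 0 of 1 tested skeletal muscle markers passed. By the same threshold, given below, 7.33% of all genes tested were lower and 11.3% higher. The other 4 muscle markers, Ckm and Myh4 among them, had too few counts to be tested. The part of these shifts in cell makeup in the results below was not tested, and in whole liver fewer cells of a type and less RNA per cell cannot be told apart.

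The transgene's products are shown first because they allow a direct look for target sites in these genes. The mature sequences are given 5′ to 3′ from RefSeq (GRCm38.p6, minus strand), with the seed, bases 2 to 8, in capitals. They lie within Igf2 at chr7:142654932-142654952 (3p) and chr7:142654968-142654989 (5p).
miR-483-3p: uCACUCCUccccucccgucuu
miR-483-5p: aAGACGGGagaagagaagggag

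The 3′ UTRs of the respiratory chain genes held almost no matches to these seeds. A match to all of bases 2 to 8 of miR-483-3p (AGGAGTG) was present in 1 of 84 tested members (1.19%), against 12.6% of 12098 tested genes with an annotated 3′ UTR. For miR-483-5p (CCCGTCT) the counts were 0 of 84 members and 3.26% of tested genes. The members' 3′ UTRs were short, with a median of 196 bases against 1164 bases over the tested genes, and a short UTR has less room for any match. The gene with a match was Ndufab1, the mitochondrial acyl carrier protein that is also a complex I subunit. Its 3′ UTR of 2944 bases held 3 matches, at positions 1181, 1935 and 2079 of the UTR (GRCm38, minus strand, chr7:122087160-122087166, chr7:122086406-122086412 and chr7:122086262-122086268). Each is shown with its neighbouring bases, and capitals mark the 7 bases that pair with the seed.
Ndufab1 first match: tagatatagttAGGAGTGaagtacgtcaa
Ndufab1 second match: acagttggagcAGGAGTGactgcaaatgc
Ndufab1 last match: cctctggtttcAGGAGTGcacagcctaga

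Ndufab1 itself ranged from 25.8 to 34.3 CPM around a median of 32.3 in Control and from 17.3 to 30.8 CPM around a median of 23.8 in iTgMir483. The groups overlapped, with 4 of 6 iTgMir483 livers below all controls. Its log2 fold change (iTgMir483 minus Control throughout) was -0.35 ± 0.13 (SE), which did not pass edgeR's quasi-likelihood test (adjusted p = 0.0703). It was picked for its matches after its value was seen.

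Across the chain, 15 of 84 tested members were lower in iTgMir483 livers and 0 were higher, at a Benjamini-Hochberg adjusted p under 0.05 over all 13205 genes tested. The lower share, 17.9%, stands beside 7.33% of all genes tested that were lower. Among all genes, 18.6% passed in either direction and 11.3% were higher. With an added requirement of a fold over 1.5, only Ndufaf4 and Cox7a1 remained, 2 of 84, beside 2.73% of all genes that were lower by that rule. At an unadjusted p under 0.05, 28 members had values below 0 and 2 above 0 (Ndufa4l2 and Ndufv3), beside 14.8% of all genes below and 18.6% above at that threshold.

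The differences were small and leaned one way. The median log2 fold change was -0.17 over the members and 0.0058 over all genes, and 65 of 84 members (77.4%) had a value below 0 against 49.2% of all genes. The quartiles of the members' values were -0.29 and -0.015. By class the medians were -0.17 for complex I subunits, 0.044 for complex I assembly factors, -0.28 for complex III, -0.14 for complex IV and -0.21 for complex V. The plot of fold change distributions sets the members against all genes.

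**Figure D1:**
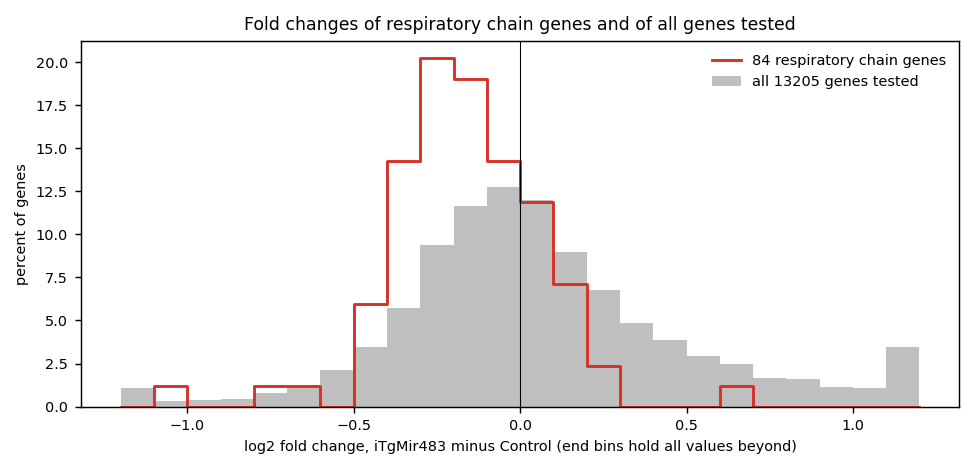
Share of genes (percent, y axis) in each bin of 0.1 of log2 fold change, iTgMir483 minus Control (x axis), for all 13205 genes tested (grey bars) and the 84 respiratory chain genes tested (red line). The members' line peaks left of 0, with a median of -0.17, and the end bins hold all values beyond them.

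These values rest on scaling each library by a TMM factor. TMM factors ran from 0.894 to 1.004 in Control and from 0.966 to 1.13 in iTgMir483 libraries. Albumin (Alb), a major hepatocyte transcript, was at 93613 to 135525 CPM in Control and 35996 to 107837 CPM in iTgMir483. The liver with the lowest Alb, iTgMir483 4 (35996 CPM), had the lowest factor of its group (0.966). What set the factors was not tested. Without a factor, by library totals alone, the median of all genes moved to 0.15 and the members' median to -0.017. Members then stayed below the all-gene median, but 0 passed lower and 2 passed higher (Ndufa13 and Ndufv3), and the calls over all genes went from 968 lower and 1489 higher to 326 lower and 2488 higher. All changes are therefore given relative to the bulk of the transcriptome. As a plain share of each library's counts, the members took 1.04% to 1.22% in Control and 0.870% to 1.31% in iTgMir483 livers.

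**Figure D2:**
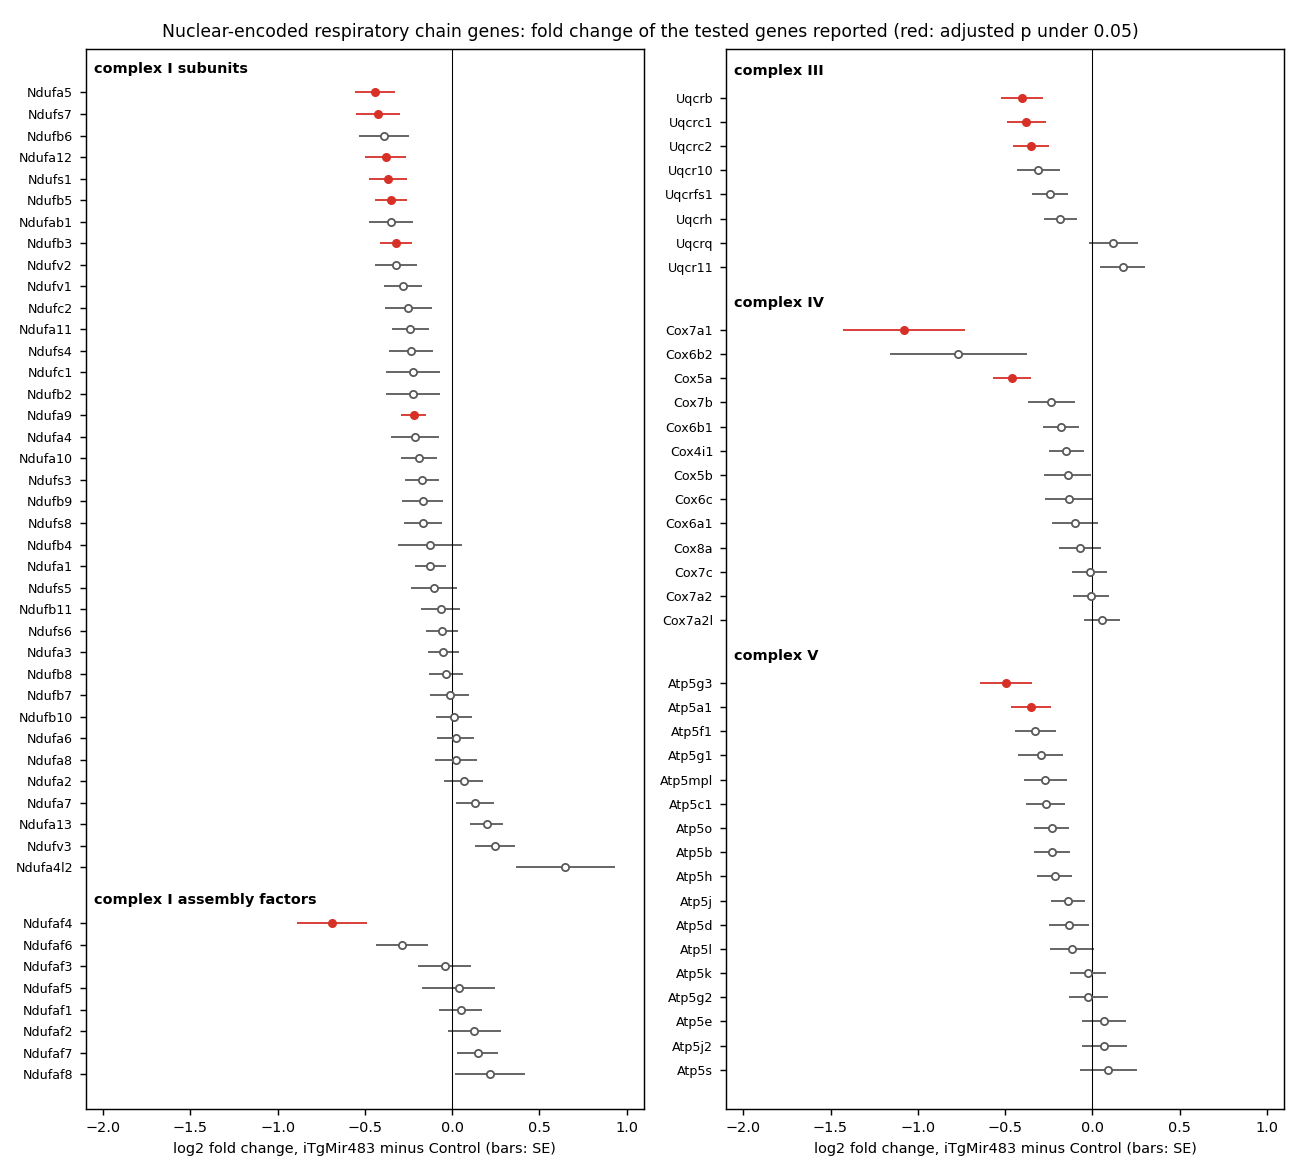
Log2 fold change, iTgMir483 minus Control, with its SE (x axis) for the tested genes reported here, ordered within each class. Filled red points mark the 15 genes with an adjusted p under 0.05, all of them left of 0, and Ndufaf4 (-0.69) and Cox7a1 (-1.08) lie farthest left of these.

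The lower levels were not shared by all iTgMir483 livers. The mean log2 CPM over the 84 members, relative to the Control mean, was -0.036, 0.12, -0.22, -0.32, -0.24 and -0.32 in iTgMir483 livers 1 to 6. In Control livers 1 to 6 it was -0.11, -0.021, 0.055, -0.073, -0.082 and 0.23. So 4 of 6 iTgMir483 livers lay below all controls, iTgMir483 2 lay above all controls but Control 6, and Control 6 was the highest of the 12. Control 6 also had the fewest counts of all libraries (12244123), though iTgMir483 1, 2 and 6 had nearly as few (12415140 to 12616511). The part of Control 6 in the difference is given by the fits without it.

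The same livers were low in every complex. For complex I subunits the mean level was 5.92 ± 0.13 in Control and 5.78 ± 0.16 in iTgMir483 (mean log2 CPM ± SD, n = 6 livers each), a difference of -0.15. For complex III the levels were 7.51 ± 0.14 and 7.31 ± 0.17. For complex IV they were 6.16 ± 0.13 and 5.91 ± 0.22, and for complex V 6.95 ± 0.15 and 6.78 ± 0.17. The complex IV mean gives Cox7a1 and Cox6b2, genes of few counts, the same weight as the others. Its difference was -0.25 over 13 genes. Over its 10 widely expressed subunits the levels were 7.26 ± 0.13 and 7.10 ± 0.22, a difference of -0.16. In complex I subunits and in complexes III, IV and V alike, 4 of 6 iTgMir483 livers lay below all controls. Assembly factors split otherwise: 4 of 6 iTgMir483 livers lay below all controls and the other 2 above them all. The mean log2 CPM of the macrophage markers relative to the Control mean was 0.51, 0.67, 0.33, 1.98, 0.90 and 1.16 in iTgMir483 livers 1 to 6. The 3 livers with the highest macrophage levels (4, 6 and 5) were also the 3 with the lowest mean level of the 84 members, while liver 3, with the lowest macrophage level of the 6, was below all controls in the members too. The part of macrophage RNA in the members' levels was not tested. By mean log2 CPM relative to the Control mean, hepatocyte markers were lowest in iTgMir483 livers 1 and 2, at -1.32 and -1.197. By summed CPM they were lowest in iTgMir483 livers 4 and 1, at 56030 and 60142 CPM. That sum is largely Alb, at 35996 and 48772 CPM in these livers. The mean weighs each marker alike, and the markers' log2 fold changes ran from -4.35 to 0.19 around a median of -0.56.

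**Figure D3:**
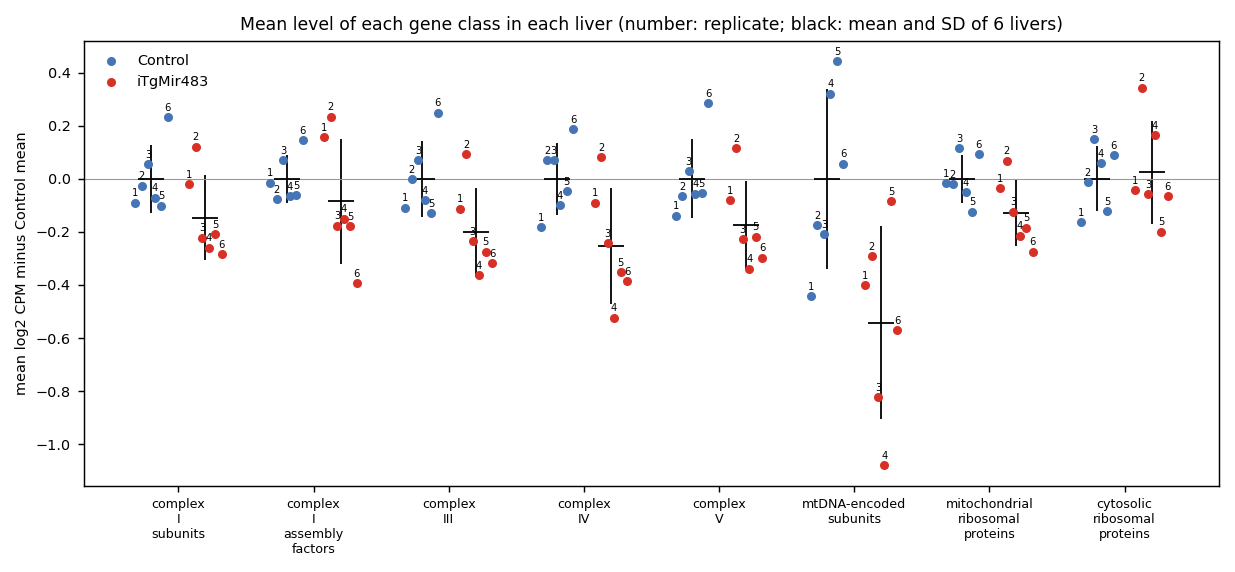
Mean log2 CPM of each gene class minus the Control mean (y axis) in each of 12 livers, numbered by replicate, with the mean and SD of 6 livers in black. iTgMir483 livers 3 to 6 sit below all Control livers in complexes I, III, IV and V, livers 1 and 2 sit within the Control range, and cytosolic ribosomal protein genes centre on 0 in both groups.

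Leaving out single libraries moved the count of lower members between 4 and 24. Without Control 6 it was 4 (Cox5a, Cox7a1, Ndufa5 and Ndufb5), and without iTgMir483 2 it was 24. It was 5 without iTgMir483 4, 5 without iTgMir483 6, 6 without Control 4, 7 without Control 2, 8 without Control 3, 8 without Control 5, 8 without iTgMir483 5 and 9 without iTgMir483 3. Cox5a, Ndufa5 and Ndufb5 passed in 12 of 12 such fits. The median over members stayed between -0.23 and -0.12.

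In complex I, which takes electrons from NADH and passes them to ubiquinone, 7 of 38 subunits were lower and 0 higher. That is 18.4% of them, beside 7.33% of all genes tested that were lower. All 7 nuclear subunits of the catalytic core had values below 0, from -0.42 to -0.17, and 2 of them passed. Of 29 accessory subunits, which surround the core and stabilise it, 5 passed and 22 had values below 0, with a median of -0.13.

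Ndufs7, a core subunit that carries an iron-sulfur cluster close to the ubiquinone site, was at 64.8 to 107 CPM (median 73.9) in Control and 50.9 to 71.2 CPM (median 56.9) in iTgMir483. Only 1 of 6 iTgMir483 livers reached the Control range. Its log2 fold change was -0.42 ± 0.13 (adjusted p = 0.0324, edgeR's quasi-likelihood test), and it passed in 6 of 12 fits that left out 1 library.

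Ndufs1, the largest core subunit and a carrier of iron-sulfur clusters, was at 139 to 200.1 CPM (median 168) in Control and 106 to 154 CPM (median 134) in iTgMir483. Here 3 of 6 iTgMir483 livers lay below all controls. The log2 fold change was -0.37 ± 0.11 (adjusted p = 0.0310), with 7 of 12 such fits passing. The gene overlaps Eef1b2 on the opposite strand, which had a mean count of 2865 against 2398 for Ndufs1, and whether the counts used strand is not given in the sources used here, so reads of these genes may be mixed. The core subunits Ndufs3, Ndufs8, Ndufv1 and Ndufv2 had values from -0.32 to -0.17 and did not pass. Among them Ndufv1, which binds NADH, was at 145 to 231 CPM in Control and 131 to 160.1 CPM in iTgMir483 (log2 fold change -0.28 ± 0.11, adjusted p = 0.0817).

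Ndufa5 (chr6:24518666-24528013, GRCm38), an accessory subunit of the peripheral arm, had the smallest adjusted p in complex I. Its level was 43.0 to 70.2 CPM (median 56.1) in Control and 35.5 to 48.8 CPM (median 40.6) in iTgMir483. The groups overlapped through Control 1, and 4 of 6 iTgMir483 livers were below all controls. The log2 fold change was -0.44 ± 0.11 (adjusted p = 0.0159), 1.36-fold lower.

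Ndufb5 (chr3:32736990-32751566), an accessory subunit of the membrane arm, was at 86.1 to 103 CPM (median 91.8) in Control and 62.7 to 88.7 CPM (median 69.8) in iTgMir483. All iTgMir483 livers but liver 2 were below all controls. Its log2 fold change was -0.35 ± 0.093 (adjusted p = 0.0174). It overlaps Mrpl47 on the opposite strand, at a mean count of 221 against 1310.

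Ndufb3, another membrane arm subunit, was at 41.3 to 52.2 CPM (median 45.6) in Control and 32.1 to 42.1 CPM (median 37.4) in iTgMir483, and 5 of 6 iTgMir483 livers were below all controls (log2 fold change -0.32 ± 0.090, adjusted p = 0.0231). Ndufa12, which sits near the core of the peripheral arm, was at 28.6 to 37.2 CPM and 18.5 to 29.5 CPM (log2 fold change -0.38 ± 0.12, adjusted p = 0.0337). Ndufa9, a subunit of the junction between the arms, was the 1 complex I gene whose groups did not overlap, at 115 to 138 CPM in Control and 104 to 112 CPM in iTgMir483. Its difference was among the smallest that passed (-0.22 ± 0.073, adjusted p = 0.0486), and it passed in 1 of 12 fits that left out a library. Over all genes tested, 2.83% were lower without overlap, and 2 of 84 members were, Ndufa9 and Atp5b.

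The remaining accessory subunits did not pass. Values from -0.39 to -0.10 were found for Ndufb6, Ndufab1, Ndufc2, Ndufa11, Ndufs4, Ndufc1, Ndufb2, Ndufa10, Ndufb9, Ndufb4, Ndufa1 and Ndufs5. Values from -0.066 to 0.067 were found for Ndufb11, Ndufs6, Ndufa3, Ndufb8, Ndufb7, Ndufb10, Ndufa6, Ndufa8 and Ndufa2. Ndufa7, Ndufa13 and Ndufv3 had values of 0.13, 0.20 and 0.25 (adjusted p = 0.419, 0.164 and 0.147).

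Ndufa4 and Ndufa4l2 carry complex I names, although NDUFA4 is now known as a subunit associated with complex IV, and NDUFA4L2 is its hypoxia-induced relative. Ndufa4 was at 231 to 307 CPM (median 252) in Control and 178 to 294 CPM (median 197) in iTgMir483, with a log2 fold change of -0.21 ± 0.14 (adjusted p = 0.297). Ndufa4l2 was low throughout, at 0.469 to 1.495 CPM in Control and 1.02 to 2.20 CPM in iTgMir483, from 7 to 30 counts a library. Its log2 fold change of 0.65 ± 0.28 was the highest of all members and did not pass (adjusted p = 0.124). It overlaps Shmt2 on the opposite strand, whose mean count was 3442 against 18.9 for Ndufa4l2, so its level is uncertain.

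Of 8 complex I assembly factors, which build the complex and are not part of it, 1 was lower (12.5%, beside 7.33% of all genes). Ndufaf4 (chr4:24898083-24905001) was at 19.4 to 30.4 CPM (median 27.9) in Control and 8.28 to 23.7 CPM (median 16.9) in iTgMir483. Its lowest value was in iTgMir483 3, and 5 of 6 iTgMir483 livers were below all controls, with iTgMir483 2 inside their range. The log2 fold change was -0.69 ± 0.20 (adjusted p = 0.0274), 1.61-fold lower, and 8 of 12 fits without a library passed. The other 7 had values from -0.29 to 0.22: Ndufaf6 was below 0 at -0.29 and Ndufaf3 at -0.043, and Ndufaf5, Ndufaf1, Ndufaf2, Ndufaf7 and Ndufaf8 were above 0.

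In complex III, which passes electrons from ubiquinol to cytochrome c, 3 of 8 genes were lower. This was 37.5%, beside 7.33% of all genes tested, and 6 of 8 had values below 0. The core proteins Uqcrc1 and Uqcrc2, which form the matrix-facing base of the complex, both passed. Uqcrc1 was at 240.4 to 334 CPM (median 258) in Control and 181 to 244 CPM (median 198) in iTgMir483, with a log2 fold change of -0.38 ± 0.11 (adjusted p = 0.0296). Uqcrc2 was at 264 to 341 CPM (median 294) and 193 to 266 CPM (median 238), with a log2 fold change of -0.35 ± 0.10 (adjusted p = 0.0259). In both genes 5 of 6 iTgMir483 livers lay below all controls, and the fits without 1 library passed in 6 of 12 for Uqcrc1 and 9 of 12 for Uqcrc2.

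Uqcrb, a small subunit near the ubiquinone site, was at 93.5 to 138 CPM (median 111) in Control and 69.2 to 108 CPM (median 85.2) in iTgMir483 (log2 fold change -0.40 ± 0.12, adjusted p = 0.0320). It passed in 4 of 12 fits without a library. Uqcrfs1, the Rieske iron-sulfur protein, had a value of -0.24 ± 0.10 (adjusted p = 0.106), with 5 of 6 iTgMir483 livers below all controls. Uqcr10 and Uqcrh had values of -0.31 and -0.18, and Uqcrq and Uqcr11 values of 0.12 and 0.17, none of which passed. Uqcr11, the most abundant complex III gene per length, was at 117 to 158 CPM in Control and 123 to 199 CPM in iTgMir483.

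Complex IV, cytochrome c oxidase, hands the electrons to oxygen. Of 18 genes, 13 were tested, and 12 of 13 had values below 0. Of these 13, 2 were lower (15.4%, beside 7.33% of all genes tested). Cox5a (chr9:57521274-57532426), a subunit found in every form of the enzyme, had the smallest adjusted p of all members. Its levels were 122, 122, 133, 109.5, 112 and 141 CPM in Control livers 1 to 6, and 103, 109.8, 85.1, 74.7, 85.1 and 80.3 CPM in iTgMir483 livers 1 to 6. Only iTgMir483 2 reached the lowest Control value. The log2 fold change was -0.46 ± 0.11 (adjusted p = 0.00974), 1.38-fold lower.

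The other widely expressed subunits moved less. Cox4i1, the largest nuclear-encoded subunit, was at 344 to 412 CPM (median 364) in Control and 301 to 391 CPM (median 317) in iTgMir483 (log2 fold change -0.15 ± 0.10, adjusted p = 0.323). Cox7b, Cox6b1, Cox5b, Cox6c, Cox6a1, Cox8a, Cox7c and Cox7a2 had values from -0.24 to -0.0081, and none passed. Cox7a2l, which takes part in joining complexes III and IV into supercomplexes, had a value of 0.054 ± 0.10 (95% interval -0.15 to 0.25). Without a scaling factor the values of Cox4i1, Cox6a1, Cox8a and Cox7a2 were above 0.

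Several complex IV subunits exist as a widely expressed and a tissue-restricted gene, and the widely expressed forms were far higher. Per kilobase of annotated exon, Control means were 239 CPM per kb for Cox4i1 and 0.102 for Cox4i2, 293 for Cox6a1 and 0 for Cox6a2, 132 for Cox7a2 and 2.44 for Cox7a1, and 235 for Cox8a and 0.0872 for Cox8b. Cox6b1 was at 269.7 and its testis-type partner Cox6b2 at 1.598 CPM per kb. Exon lengths are of all annotated transcripts together, which can understate the level of a gene with long rare transcripts. The filter on low counts left out 5 genes: Cox4i2 had 0 to 5 counts a library, Cox8b 0 to 3, Cox8c 4 counts in 1 library, Cox7b2 1 count in 1 library, and Cox6a2 0 in all.

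**Figure D4:**
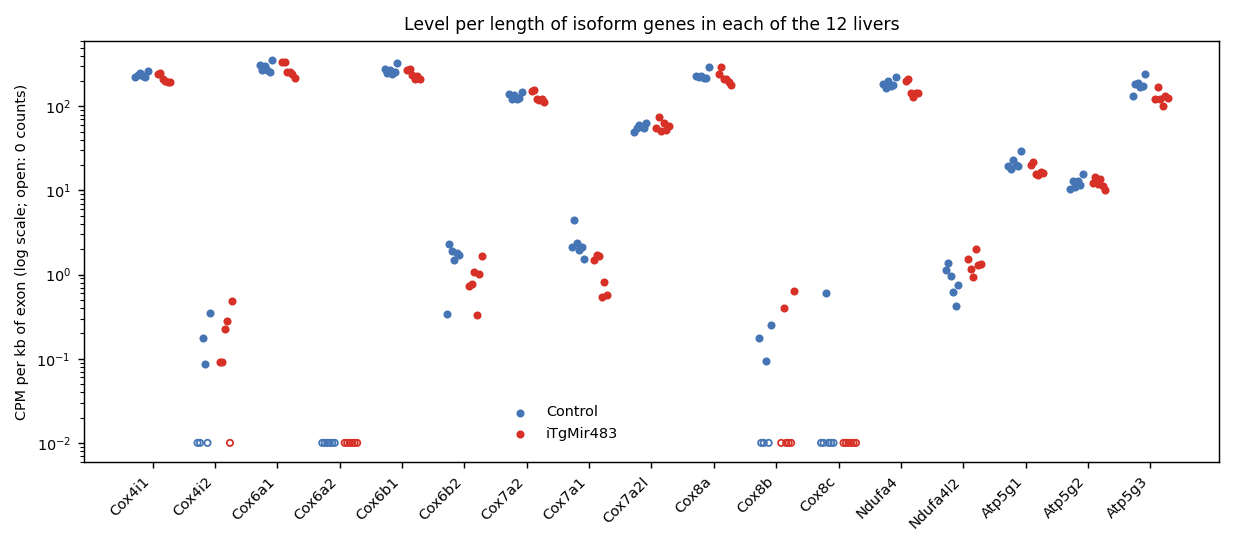
CPM per kilobase of exon (y axis, log scale) in each of 12 livers for genes that code for alternative forms of a subunit, with open circles at the bottom for 0 counts. Cox4i1, Cox6a1, Cox7a2 and Cox8a lie near or above 100, and Cox4i2, Cox7a1 and Cox8b lie far below them, with Cox6a2 at 0.

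Of these minor forms, Cox7a1, the heart and muscle form of COX7A, was lower in iTgMir483 livers. Its level was 0.823 to 2.42 CPM (median 1.13) in Control and 0.293 to 0.928 CPM (median 0.620) in iTgMir483, from 4 to 42 counts a library. Control 2 stood at 2.42 CPM and the other 5 controls at 0.823 to 1.25 CPM. The log2 fold change was -1.08 ± 0.35 (adjusted p = 0.0431), 2.12-fold lower, and -0.81 without Control 2 (adjusted p = 0.109). Cox7a1 passed in 5 of 12 fits without a library, and with neither of the alternative count filters. Cox6b2 had a value of -0.77 ± 0.39 and did not pass (adjusted p = 0.186). Of the skeletal muscle markers, Mylpf, a myosin light chain of fast fibres, was at 0.366 to 0.941 CPM in Control and 0.357 to 0.877 CPM in iTgMir483, and its value of 0.023 ± 0.30 was far from passing (adjusted p = 0.967). Ckm, Acta1, Myh4 and Tnnt3 were at 0 to 0.143 CPM. The part of muscle RNA in the Cox7a1 values was not tested.

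In complex V, 2 of 17 tested genes were lower and 14 of 17 had values below 0. The share that was lower, 11.8%, stands beside 7.33% of all genes tested. Atp5a1, the alpha subunit of the F1 head, was the most abundant member per length (393 CPM per kb in Control). It was at 1018 to 1524 CPM (median 1203) in Control and 866 to 1050 CPM (median 977) in iTgMir483, with 5 of 6 iTgMir483 livers below all controls. Its log2 fold change of -0.35 ± 0.12 passed narrowly (adjusted p = 0.0467), and in 1 of 12 fits without a library. Atp5b, the catalytic beta subunit, was at 1406, 1513, 1426, 1413, 1448 and 1749 CPM in Control livers and 1297, 1272, 1297, 1208, 1302 and 1249 CPM in iTgMir483 livers. All 6 iTgMir483 livers lay below all controls. In the fit over all genes its log2 fold change of -0.23 ± 0.10 did not pass (adjusted p = 0.125). Atp5c1 of the central stalk had a value of -0.27 ± 0.11 (adjusted p = 0.107), and Atp5d and Atp5e values of -0.13 and 0.066.

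The proton-driven c-ring is made from 1 protein coded by 3 genes, and these did not move alike. Atp5g3 was at 290.3 to 533 CPM (median 391) in Control and 221 to 371 CPM (median 273) in iTgMir483, with a log2 fold change of -0.50 ± 0.15 (adjusted p = 0.0316) that passed in 4 of 12 fits without a library. Atp5g1 had a value of -0.30 ± 0.13 (adjusted p = 0.125). Atp5g2 had a value of -0.022 ± 0.11 (95% interval -0.25 to 0.20), and above 0 without a scaling factor. The differences between the 3 genes were not tested. Per length, Control means were 183 CPM per kb for Atp5g3, 21.6 for Atp5g1 and 12.5 for Atp5g2. The peripheral stalk genes Atp5f1, Atp5o, Atp5h and Atp5j had values from -0.33 to -0.14 and none passed. The others, Atp5mpl, Atp5l, Atp5k, Atp5j2 and Atp5s (a coupling factor), ranged from -0.27 to 0.092. The second Atp5o identifier had 0 counts in every library.

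**Figure D5:**
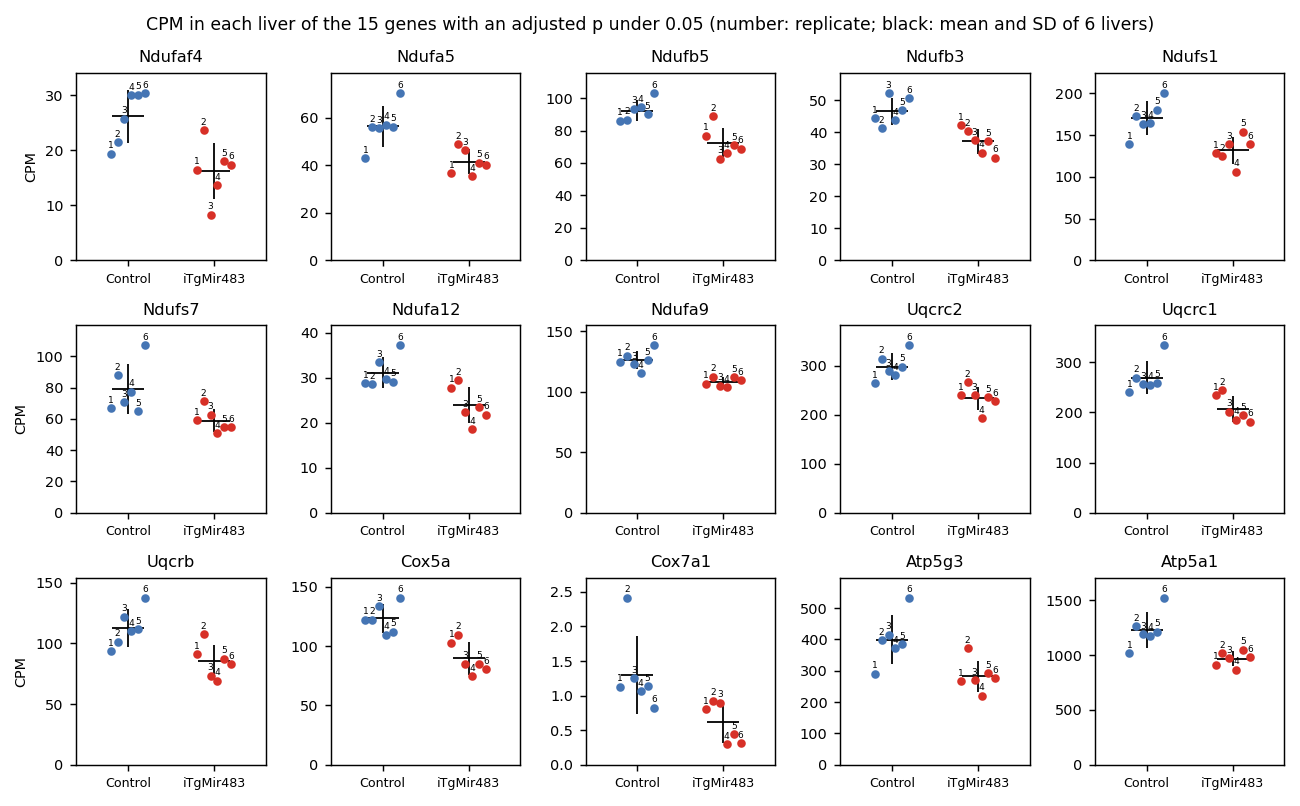
CPM in each liver (y axis, from 0; points numbered by replicate, mean and SD of 6 livers in black) for the 15 genes with an adjusted p under 0.05. In most panels iTgMir483 2 is the highest of its group and Control 6 the highest of all, as in Cox5a, where 5 of 6 iTgMir483 livers lie below all controls.

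What the 15 lower members share beyond their names was looked at in 2 ways, as description. Exon length and log2 fold change were weakly related over the 84 members (Spearman rho = -0.13), with 10 of 42 longer and 5 of 42 shorter members passing. Promoters were read from RefSeq windows (GRCm38.p6, 250 bases before to 50 after the start), which matched 73 of 89 symbols. Motifs of 4 factors known for respiratory genes were searched on both strands: NRF1, whose arms read GCGCA and GCGC around 1 free base, GABPA (CCGGAAG), YY1 (AAGATGGC) and ERRA (TCAAGGTC). A gene counted once for each motif it held, and matches to different motifs were not kept from overlapping, though none overlapped in the stretches printed below.

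The NRF1 motif was in 17 of 73 members (23.3%), 11.1% of tested genes and 4.60% of all 32851 windows. The YY1 motif was in 15.1% of members, 5.18% of tested genes and 2.75% of windows. The GABPA motif was in 21.9% of members, 19.7% of tested genes and 8.86% of windows, and the ERRA motif in 4.11%, 0.978% and 1.05%. Among 11 lower members with a window, 4 held the NRF1 motif (Atp5g3, Ndufa5, Ndufaf4 and Uqcrc1), 2 the YY1 motif (Ndufa9 and Ndufs7), 1 the ERRA motif (Atp5g3) and 0 the GABPA motif. The median log2 fold change of tested members with and without a motif was -0.12 and -0.17 for NRF1, -0.11 and -0.22 for GABPA, -0.14 and -0.17 for YY1, and -0.39 and -0.14 for ERRA, the last from 3 members with the motif. These differences were not tested. Promoter GC content had a median of 57.3% in members and 52.7% in all windows, which also bears on how often GC-rich motifs occur.

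The 150 bases before the start are shown for the 3 lower members with a match upstream of the start, to show where in the promoter it lies. The NRF1 match in Atp5g3 and the matches in Uqcrc1, Ndufa9 and Ndufs7 lie after the start and are not printed. Ndufa5 has another RefSeq start, and the same match lies 190 bases before that one. The Ndufa5 stretch also lies within the gene span given above, so its place relative to the start is uncertain. Capitals mark the match: ERRA in Atp5g3 (chr2:73911327-73911476, minus strand), NRF1 in Ndufa5 (chr6:24527691-24527840, minus strand) and NRF1 in Ndufaf4 (chr4:24897933-24898082, plus strand).
Atp5g3: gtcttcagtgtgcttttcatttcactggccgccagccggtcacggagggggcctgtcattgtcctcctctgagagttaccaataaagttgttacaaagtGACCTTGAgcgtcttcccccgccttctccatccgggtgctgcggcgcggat
Ndufa5: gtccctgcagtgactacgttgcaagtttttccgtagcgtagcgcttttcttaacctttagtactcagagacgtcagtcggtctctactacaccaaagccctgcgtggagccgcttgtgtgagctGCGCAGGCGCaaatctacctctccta
Ndufaf4: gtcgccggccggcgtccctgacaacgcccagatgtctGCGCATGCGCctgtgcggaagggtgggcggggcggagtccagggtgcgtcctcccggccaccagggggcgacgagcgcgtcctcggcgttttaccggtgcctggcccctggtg

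The genes around the chain were taken from lists kept apart from the symbol rule. Of 23 regulators of respiratory gene expression, 2 were lower and 0 higher by edgeR's quasi-likelihood test. The lower share, 8.7%, was near the 7.33% of all genes tested. Their mean level was 4.13 ± 0.056 in Control and 3.99 ± 0.048 in iTgMir483 (mean log2 CPM ± SD, n = 6 livers each). By that measure 5 of 6 iTgMir483 livers lay below all controls, and single values ran from -0.90 to 0.37. The lower ones were Mterf3, a mitochondrial transcription factor (-0.57 ± 0.11, adjusted p = 0.00393), and Polrmt, the mitochondrial RNA polymerase (-0.29 ± 0.089, adjusted p = 0.0321). Neither the coactivator Ppargc1a nor Nrf1, Gabpa, Yy1, Esrra or Tfam passed.

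Complex II, cytochrome c and other subunits outside the rule leaned the same way, with 4 of 11 lower and 0 higher. The 36.4% that were lower stand beside 7.33% of all genes tested. Sdhd, a membrane anchor of complex II, was at 279 ± 40.6 CPM (SD, n = 6) in Control and 176 ± 26.6 CPM in iTgMir483, with a log2 fold change of -0.66 ± 0.13 (adjusted p = 0.00327). Cyc1, the cytochrome c1 heme protein of complex III, was lower by -0.51 ± 0.11 (adjusted p = 0.00762), and all 6 iTgMir483 livers lay below all controls. Cycs, the mobile carrier cytochrome c, had a value of -0.63 ± 0.16 (adjusted p = 0.0147), and Sdha, the flavoprotein of complex II, -0.35 ± 0.10 (adjusted p = 0.0290). Of 45 tested assembly factors outside the rule, 7 were lower (15.6%) and 0 higher, led by Uqcc1 (-0.35), Lrpprc (-0.42) and Cox10 (-0.44).

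Of 13 subunits coded by mitochondrial DNA, 7 were tested, all with values below 0 (median -0.59). Of these 7, 1 passed (14.3%, beside 7.33% of all genes tested that were lower). mt-Nd1 was at 3889 ± 1142 CPM in Control and 2259 ± 537 CPM in iTgMir483 (log2 fold change -0.78 ± 0.21, adjusted p = 0.0197). The other 6 (mt-Nd3, mt-Nd4l, mt-Co2, mt-Co3, mt-Atp6 and mt-Atp8) had 0 to 9 counts a library, so the subunits made in the mitochondrion were measured only in part.

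Among tricarboxylic acid cycle genes, which feed electrons to the chain, 4 of 18 were lower, led by Sucla2 (-0.56), Dlat (-0.44) and Idh3a (-0.52), and 1 was higher, Suclg2 (0.30). The shares of these genes, 22.2% lower and 5.56% higher, stand beside 7.33% and 11.3% of all genes tested. Of 12 tested carriers and antioxidant genes, 3 were lower (Sod2, Gpx1 and Slc25a3) and 2 higher, shares of 25% and 16.7%. The higher ones were the ADP/ATP carriers Slc25a5 (0.46 ± 0.12, adjusted p = 0.0167) and Slc25a4 (0.48 ± 0.15, adjusted p = 0.0334), which exchange the product of complex V for its substrate. Slc25a3 imports the phosphate that complex V uses (-0.33 ± 0.11, adjusted p = 0.0432).

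Ribosomal protein genes, also short and abundant, set the chain in context. Of 77 tested mitochondrial ribosomal protein genes, 6 were lower and 1 higher, with a median of -0.11. The lower share, 7.79%, stands beside 7.33% of all genes tested. Values below 0 made up 79.2% of these genes, against 77.4% of the respiratory chain members. Of 75 tested cytosolic ribosomal protein genes, 0 passed edgeR's test and 1 had an unadjusted p under 0.05, with a median of 0.032 and 42.7% of values below 0.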

How the data were processed

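Gene counts were analysed from 6 Control and 6 iTgMir483 female livers, grouped by their labels. RNA was extracted with miRNeasy and libraries were made with the TruSeq stranded mRNA kit. The authors aligned reads to GRCm38 with STAR and deposited raw counts per gene (Ensembl annotation), with no normalization. Which strand column was kept is not given in the sources used here. From the deposited counts, genes were kept by filterByExpr, scaled by TMM and tested with edgeR 4.0.16 (R 4.3.3) by the quasi-likelihood F-test, without covariates, with Benjamini-Hochberg adjustment over all genes tested. A gene passed at an adjusted p under 0.05, and a second rule added a fold over 1.5. Class levels are means of log2 CPM with a prior count of 1. Symbols, positions and exon lengths came from a GENCODE annotation of GRCm38, not the authors' own release. The code was tested on simulated counts.

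Library totals (12244123 to 30431286 counts) set the precision, and 3 counts, the limit that a count of 0 allows, equal 0.103 to 0.274 CPM, covering counting error only. Libraries are labelled as separate samples, p-values measure the spread between these, and no 2 libraries of a group were alike within sampling noise. Members named at length were those passing the second rule, up to 3 per class with the smallest p, the most abundant per kb, core subunits and isoform pairs. Other members were named after their values were seen, and 1 member is counted but not reported here by itself. The members and all lists were chosen with earlier results of these data known. Alternatives were size factors by RLE, no scaling factor (added after seeing the data), 2 count filters, DESeq2 1.42.0, voom in limma 3.58.1, a replicate block and leaving out each library.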

Additional observations from a re-analysis of the deposited data

Results flagged for a closer look

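In 5 of 68 groups of 6 livers examined for the named members, 1 liver stood apart by Dixon's ratio (its gap to the nearest other liver over the whole range, above the 95% critical value), and chance gives about 1 in 20 such groups. Control 6, the library with the fewest counts, was the high one in 4 of them. In Atp5b its level was 1749 CPM and the other 5 controls lay at 1406 to 1513 CPM (ratio 0.686). In Uqcrc1 it was at 334 CPM against 240.4 to 269 CPM (ratio 0.689). In Cox8a it was at 180.2 CPM against 134 to 143 CPM (ratio 0.800), and in Cox6b1 at 230.4 CPM against 174 to 195 CPM (ratio 0.629). In Cox7a1 Control 2 was at 2.42 CPM against 0.823 to 1.25 CPM (ratio 0.729), from 42 counts. The cause was not tested.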

How the results depend on the processing

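The count of 15 members that passed was 15 with RLE size factors and 15 with voom, 11 with a filter of 1 count in total, 12 with 10 counts in every library, 18 without both replicate 1 libraries and 24 with DESeq2. Without a scaling factor it was 2, both higher, the members' median was -0.017, and the counts were 2 (complex I subunits), 0 (assembly factors), 0 (complex III), 0 (complex IV) and 0 (complex V). DESeq2 gave 12 in complex I and 5 in complex V. Each count filter gave 1 in complex IV and 1 in complex V. With a fold over 1.5 the counts were 2 members, 0 in complex I, 0 in complex III, 1 in complex IV, 0 in complex V and 1470 over all genes.

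Leaving out 1 library gave 4 (without Control 6) to 24 members (without iTgMir483 2), 2 to 12 in complex I, 0 to 1 assembly factors, 0 to 5 in complex III, 1 to 3 in complex IV, 0 to 4 in complex V, 1742 to 2663 over all genes, and a median of -0.23 to -0.12. Of the named members, those that changed sign without a scaling factor were Atp5g2 (0.13), Cox4i1 (0.0079), Cox6a1 (0.060), Cox7a2 (0.15) and Cox8a (0.087), and with 10 counts in every library Cox7a2 (0.0043). With 1 library left out, values crossed 0 in Atp5g2 (-0.071 to 0.049), Cox7a2 (-0.063 to 0.030), Cox7a2l (-0.020 to 0.095) and Ndufaf1 (-0.0025 to 0.12). The causes were not tested.

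With the replicate number as a block, 11 of the 15 members passed, with 1 in complex III and 1 in complex V. Correlations of the deviations between libraries that share a number were 0.034 to 0.43. They were over 0.1 in 2 of 6 pairs, replicates 1 (0.43) and 5 (0.16). The numbers were not treated as a pairing in the main fit. The labels give no litter, so whether some libraries share a litter cannot be told. Depth limits genes of few counts, such as Cox7a1 and Ndufa4l2.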
